A study of Mus musculus with 3 samples.

Results

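The genes described here encode the microtubule motors of the cell, the kinesins and cytoplasmic dyneins, with the kinesin light chains and the first 6 subunits of dynactin. They were chosen by gene name among protein-coding genes (Kif, Klc1 to Klc4, Dync1, Dync2 and Dctn1 to Dctn6). The rule matched 60 genes, of which 59 had a transcript with a 5′ UTR, a coding sequence (CDS) and a 3′ UTR in the count tables, among 20823 genes of all kinds that did. One of them, Kif1bp, carries the name of a kinesin but encodes a kinesin-binding protein and not a motor. For every gene the longest transcript was used.

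Ribosome profiling, the sequencing of mRNA fragments protected by ribosomes, was done on mouse primary cortical neurons in 3 libraries. The Chx library came from neurons given cycloheximide, which stops elongating ribosomes in place, for 2 minutes. The Harr library came from neurons given harringtonine, which holds ribosomes at start codons while those already elongating run on, for 2 minutes with a Chx pulse after it, and the WT library from neurons given neither drug. These groups follow the titles and the treatment labels. The description labels instead name input or pulldown fractions, of cytosol or PSD, from neurons marked dep, and if they held, every value below would belong to other material. Each library pooled 3 dishes, the wash and lysis buffers of all 3 held cycloheximide at 100 μg per ml, and the footprints came from monosomes made with micrococcal nuclease. There was 1 library per treatment, so no p-value can be given, and intervals and standard errors (SE) cover counting error alone.

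Kinesins mostly walk toward the plus ends of microtubules, which in axons point to the terminal, and cytoplasmic dynein walks toward the minus ends with dynactin as its activating partner. Neurons depend on both for moving vesicles, mitochondria and mRNA granules between the soma and distant processes. Other kinesins build the mitotic spindle, shorten microtubules, or work with dynein 2 inside cilia.

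Short stretches of the transcripts show where ribosomes can start on these mRNAs. Kif5a, Dync1h1 and Dctn3 have no ATG in the 5′ UTR, and their annotated start codons are shown first. Kif2a has an ATG 8 nucleotides before its start codon, in a frame of 9 nucleotides whose stop codon overlaps the start codon. Kif1a, Kif21a, Kif1b and Kif5c have a short upstream open reading frame that ends within the 5′ UTR, and Klc1 has one of 39 nucleotides of which the beginning is given. Capitals mark the start codon, the ATG of the frame named and, in the frames of Kif1a, Kif21a, Kif1b and Kif5c, its stop codon. The Kif5c stretch holds a further ATG in lower case. All sequences read 5′ to 3′ on the mRNA strand, and positions are mm10 with GENCODE transcripts.
Kif5a start codon (chr10:127262882-127262911, minus strand): tcgtcgtcgaccaccATGgcggagactaac
Dync1h1 start codon (chr12:110601590-110601619, plus strand): ttccgtggatccgccATGtcggagccgggc
Dctn3 start codon (chr4:41723116-41723145, minus strand): caggctgcagaaacgATGgcggctctgacc
Kif2a upstream ATG and start codon (chr13:107022066-107022095, minus strand): ccgccgctccggATGaggtgATGgcaacgg
Kif1a upstream frame (chr1:93101773-93101802, minus strand): ccagtgcccATGcacggctatccccagTGA
Kif21a upstream frame (chr15:91049803-91049832, minus strand): tcgcccaacATGgctggagcacggcgcTGA
Kif1b upstream frame (chr4:149307571-149307600, minus strand): tcctcgATGcagagctgggcggccgcgTGA
Kif5c upstream frame (chr2:49619310-49619339, plus strand): agcacggtggtgctgATGcaggatggcTGA
Klc1 upstream frame, beginning (chr12:111758926-111758955, plus strand): gtcagggtgaggATGctgcggggcggctgc

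Read totals of the files were 35722483 (Chx), 9754412 (Harr) and 30219197 (WT), smallest in Harr. The 59 motor genes took 212669, 47707 and 152347 CDS reads in Chx, Harr and WT, which was 1.05%, 1.26% and 0.914% of the CDS reads of all genes. Neuronal markers summed to 5405, 4014 and 5863 RPM, the reads of a CDS scaled by the total reads of the file, and all 8 were read in each library. RPM, like the RPKM used below, counts reads outside CDSs in the total, and so lies lower in Harr than shares of CDS reads do. As shares of CDS reads, the neuronal sum stood at a log2 ratio of 0.12 (Harr against Chx) and that of dividing cells at 0.14. The sums of motile cilia, microglia, astrocytes and oligodendrocytes stood at 0.58, -0.37, -0.76 and -1.02. Most single markers of the first 2 lists lay below 0. The neuronal median was -0.68 with 1 of 8 above 0, Map2 at 1.03, and that of dividing cells -1.03 with 3 of 8 above 0. Over all genes tested, 47.6% lay above 0. Astrocyte markers summed to 195, 78.8 and 213 RPM, those of dividing cells to 69.5, 52.4 and 64.9, and those of cells with motile cilia to 14.7, 15.0 and 14.2. Markers of oligodendrocytes stood at 6.52, 2.15 and 5.72 RPM, with Mog and Mobp at 0 in every library, and those of microglia at 2.80, 1.44 and 2.68. All 8 markers of dividing cells and all 4 of astrocytes had reads in each library, and the part of these cells in the values that follow was not tested.

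Levels are given as RPKM, which divides that value by the CDS length as well, so that long and short genes can be set side by side. In WT the highest members were 2 subunits of dynactin, a kinesin-3 and the kinesin-1 light chain. Dctn3, a small subunit of the dynactin shoulder, stood at 238 RPKM in Chx, 117 in Harr and 231 in WT. Dctn2, or dynamitin, stood at 242, 87.0 and 231 RPKM in the same order. Kif1a, the carrier of synaptic vesicle precursors (CDS at chr1:93018457-93082421), stood at 234, 226 and 172 RPKM. Dctn3 and Dctn2 were thus lower in Harr than in both other libraries, and Kif1a was higher in both drug libraries than in WT. Klc1, which links kinesin-1 to cargo, followed at 170, 88.1 and 138 RPKM, and Dync1i2, a dynein intermediate chain, at 125, 93.9 and 132. Kif5a and Kif5c, the neuronal kinesin-1 heavy chains, stood at 122 and 104 RPKM in WT, and Kif3a, the shared subunit of the kinesin-2 motors, at 98.5. Dync1i1 with 91.5 and Dctn6 with 84.8 RPKM in WT closed the 10 highest. The 5 most read members held 52.0%, 59.1% and 47.1% of the CDS reads of all motor genes in Chx, Harr and WT, and Kif1a alone held 20.1%, 23.6% and 17.4%.

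**Figure D1:**
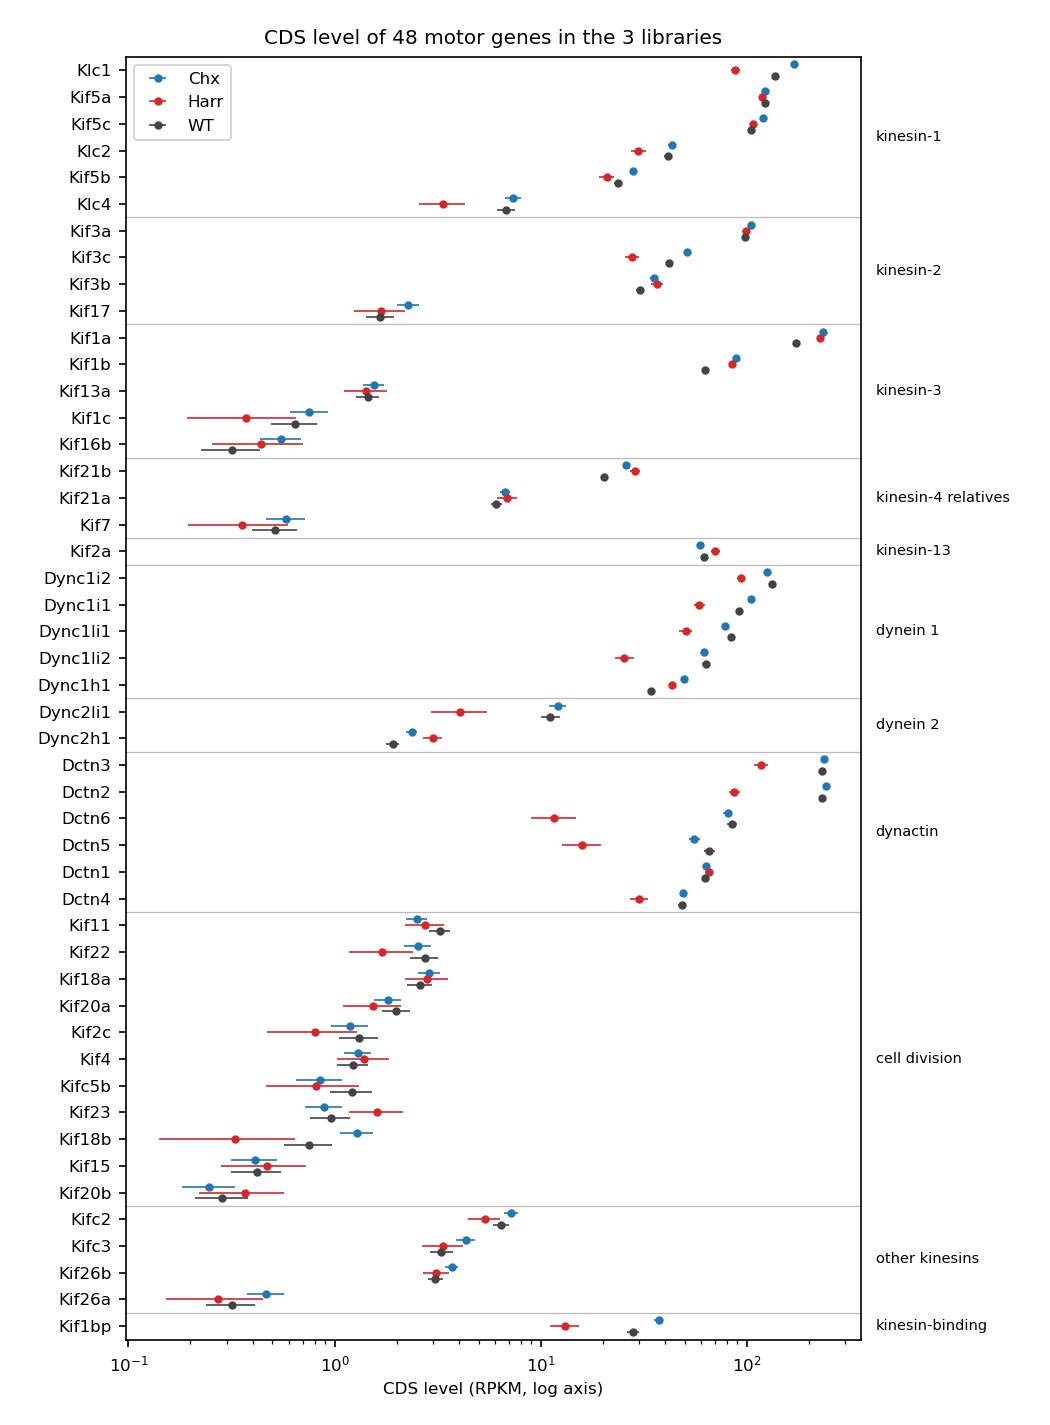
CDS level in RPKM (log axis) of the 48 motor genes with at least 100 CDS reads over the 3 libraries, grouped by role, with 1 point per library and exact Poisson 95% counting intervals. Dctn5 and Dctn6 show the widest gap between Harr and the other libraries among the well-read genes, while cell-division kinesins sit between 0.247 and 3.24 RPKM.

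The levels fell into a few tiers. In WT, 25 of the 59 members were above 10 RPKM, and the median of all 59 was 3.24 RPKM. Within kinesin-1, Kif5a had 1.17 (95% interval 1.14 to 1.21) times the read density of Kif5c in WT and 5.18 (4.94 to 5.42) times that of Kif5b, the form found in most tissues. Klc2 stood at 41.3 RPKM in WT and Klc4 at 6.78, while Klc3 had 18, 0 and 5 CDS reads in Chx, Harr and WT. A count of 0 for Klc3 in Harr allows up to 0.201 RPKM. In kinesin-2, Kif3c and Kif3b, the alternative partners of Kif3a, stood at 41.9 and 30.2 RPKM in WT, and Kif17, which works as a homodimer, at 1.67. Kif3c had 1.46 (1.39 to 1.53) times the density of Kif3b in Chx and 1.39 (1.31 to 1.47) times in WT, but 0.756 (0.682 to 0.839) times in Harr. The order of these partners therefore differed between Harr and the other libraries by more than counting error.

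Dynein 1 and dynactin are assembled from fixed sets of subunits, and read densities of their genes were unequal. Dync1h1, the heavy chain that holds the motor (CDS at chr12:110601605-110666691), stood at 49.8, 43.3 and 34.3 RPKM in Chx, Harr and WT. Its intermediate chains Dync1i1 and Dync1i2 together had 4.61 (4.52 to 4.70) times its density in Chx, 3.53 (3.37 to 3.69) in Harr and 6.53 (6.37 to 6.69) in WT. The light intermediate chains, which bind cargo adaptors, stood at 78.6, 50.5 and 83.9 RPKM for Dync1li1 and at 61.9, 25.5 and 63.3 for Dync1li2. Dctn1, the large dynactin subunit that touches the microtubule, stood at 63.4, 65.4 and 62.5 RPKM. Dctn2 had 3.82 (3.71 to 3.93), 1.33 (1.24 to 1.43) and 3.70 (3.58 to 3.82) times the density of Dctn1 in Chx, Harr and WT. Dctn4, Dctn5 and Dctn6 belong to the pointed end of dynactin, and stood at 48.4, 65.8 and 84.8 RPKM in WT. Dynein 2, the retrograde motor of cilia, was much lower, with Dync2li1 at 12.1, 4.08 and 11.1 RPKM and Dync2h1 at 2.37, 2.99 and 1.92.

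Other members were low. The 13 kinesins of cell division summed to 1592, 414 and 1439 CDS reads, and the 4 with the most reads over the libraries were Kif11, Kif18a, Kif22 and Kif20a. Kif11, which pushes spindle poles apart, stood at 2.50, 2.76 and 3.24 RPKM. Kif18a, Kif22 and Kif20a stood at 2.59, 2.74 and 1.99 RPKM in WT. Fewer dividing cells and less mRNA in each of them cannot be told apart here. The study describes its cultures as free of contaminating cells other than neurons, while markers of dividing cells were read in every library as given above. Kifc1 and Kifc5b shared 79.0% and 74.1% of their CDS 25-nucleotide words with another gene, so their values are uncertain. Kif12 and Kif2b had no CDS read in any library, and 9 further members had fewer than 100 over the 3 libraries (Kifc1, Kif9, Kif24, Kif6, Kif14, Klc3, Kif27, Kif28 and Kif19a).

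Reads in the 5′ UTR separated the Harr library from both others. Of all motor gene reads, 7.46% (95% Wilson interval 7.35 to 7.56) lay in the 5′ UTR in Chx, 23.8% (23.5 to 24.2) in Harr and 4.84% (4.73 to 4.94) in WT. Over all genes the shares were 8.71%, 33.5% and 6.14%. The 5′ UTRs of motor genes summed to 12623 nucleotides beside 188862 of CDS, and those of all genes to 5288948 beside 33073365. Per nucleotide, the read density of the 5′ UTR was 1.21, 4.81 and 0.764 times that of the CDS in Chx, Harr and WT, against 0.608, 3.36 and 0.419 over all genes. Reads were assigned by their 5′ end, so a ribosome sitting on the start codon is counted in the 5′ UTR.

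For each gene the odds of a 5′ UTR read against a CDS read were compared between libraries, as a log2 odds ratio with 0.5 added to each count. At least 10 reads in each region were required. Among the 42 motor genes that had them, 37 were above 1 in Harr against Chx and none was below -1, where 92.1% of all genes tested were above 1 and 0.289% below -1. Against WT, 35 of 37 were above 1, with 96% of all genes tested. The medians were 2.41 (95% interval 1.58 to 2.61) for motor genes and 2.46 for all genes against Chx, and 3.15 and 3.23 against WT. The motor genes as a list thus lay close to the background. In Chx against WT, 12 of 38 were above 1, beside 34.7% of all genes, with medians of 0.76 and 0.67.

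Within the list the spread was wide. Dctn6 was highest against Chx: its 53, 45 and 28 reads in the 5′ UTR stood beside 1652, 65 and 1468 in the CDS, for Chx, Harr and WT, a log2 odds ratio of 4.42 (SE 0.34). Dctn5 followed with 4.41 (SE 0.29), from 57, 95 and 67 reads in the 5′ UTR and 1091, 85 and 1092 in the CDS. In both genes the CDS count was far lower in Harr, while the count in the 5′ UTR was not. Dync1i1 reached 3.66 (SE 0.10), with 375, 731 and 177 reads in a 5′ UTR that also overlaps a CDS of another transcript. Here the 5′ UTR held the most reads in Harr, although that library was the smallest.

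Against WT, Dctn6 stood at 5.16 (SE 0.39) and Klc4 at 4.55 (SE 0.67). Kif17 had 26 reads in the 5′ UTR in Harr and 0 in WT, so that its ratio of 5′ UTR to CDS reads was at least 26.7-fold higher in Harr, with the floor of 3 counts in WT. At the other end, Kifc3 stood at -0.31 (SE 0.35) against Chx and 0.45 (SE 0.39) against WT, from 153, 26 and 58 reads in a 5′ UTR that overlaps a CDS of another transcript. This place of Kifc3 rested on its longest transcript: with the transcript of most CDS reads it stood at 2.83 and 5.60, and at 2.77 in place of 0.76 in Chx against WT. Kif15 and Kif26a, with 0.30 (SE 0.89) and 0.54 (SE 1.09) against Chx, rested on 4 and 2 reads in Harr and cannot be placed. Kif21b, a kinesin-4 that shapes microtubule growth in dendrites, was low on large counts, with 1034, 570 and 649 reads in the 5′ UTR and values of 0.86 (SE 0.09) against Chx and 0.95 (SE 0.10) against WT. Its longest transcript is annotated as a target of nonsense-mediated decay and its 3′ UTR, though not its 5′ UTR, overlaps a CDS of another transcript. Kif18a at 1.50 (SE 0.55) was the remaining gene of the lowest 3 against WT. In Chx against WT, Kif2a, a microtubule depolymerase, stood at 2.12 (SE 0.15), from 559, 401 and 113 reads in 43 nucleotides of 5′ UTR. Kif15 and Kif17 had no 5′ UTR read in WT, and their ratios were at least 3.19-fold and 2.28-fold higher in Chx. The lowest values of that comparison, -0.31 for Kif26a, -0.23 for Dctn5 and -0.14 for Kif18a, were each smaller than their SE of 0.73, 0.27 and 0.51.

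Some of this spread went with the presence of an ATG in the 5′ UTR, in groups that were not matched for CDS length. An ATG upstream of the start codon was present in 28 of 59 motor genes (47.5%) and in 55.4% of 20690 genes with a sequence. The motor genes with one had a median log2 odds ratio of 1.55 (1.16 to 2.33, 22 genes) in Harr against Chx, and those without one 3.08 (2.58 to 3.48, 20 genes). Against WT the medians were 2.22 (19 genes) and 3.98 (18 genes). Over all genes the same split gave 2.26 and 2.77 against Chx and 2.79 and 3.81 against WT, so it was not particular to motor genes. Dctn6, with 3 upstream ATGs and the highest value against Chx, went the other way. CDS reads also enter these odds, and over 48 motor genes their ratio in Harr rose with CDS length. Spearman's rho was 0.63 against Chx and 0.76 against WT. Long CDSs such as Dync2h1, Kif1b and Kif1a had an upstream ATG, and short ones such as Dctn3 and Dctn5 had none. The long Dync1h1 and the short Dctn6 were the reverse. The part of CDS length in the split was not tested.

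**Figure D2:**
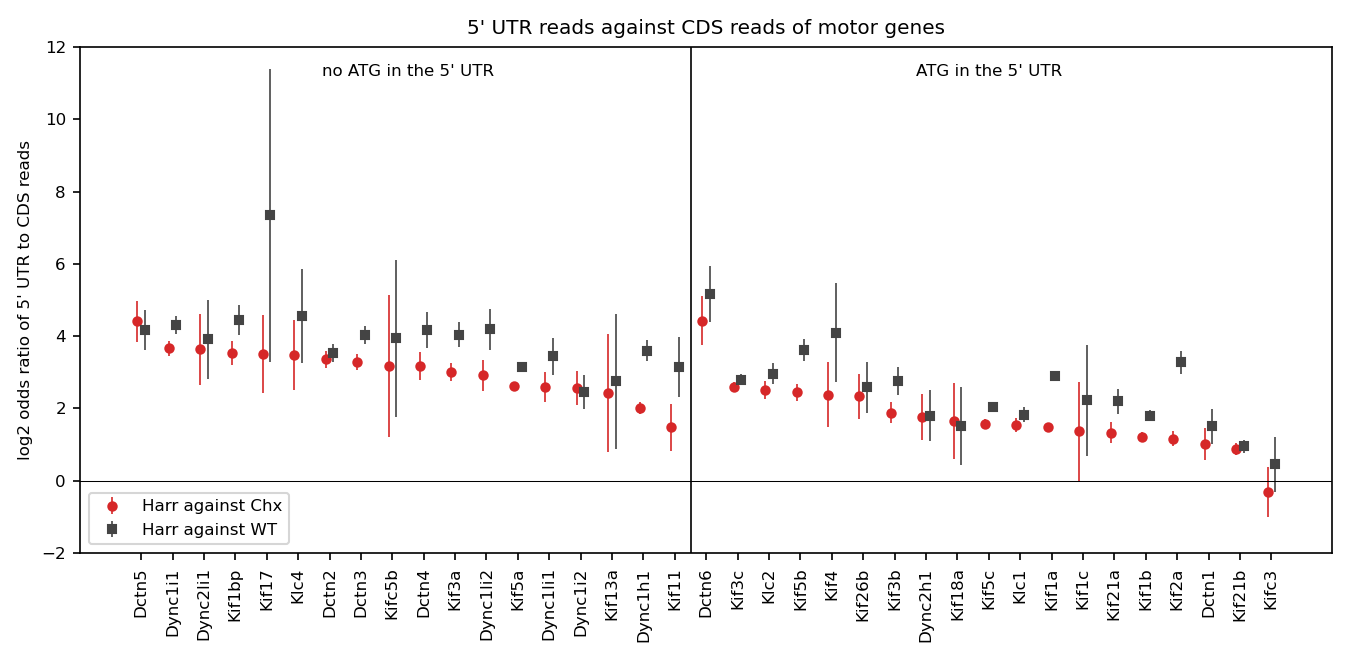
Log2 odds ratio of 5′ UTR to CDS reads for Harr against Chx (circles) and Harr against WT (squares) in 37 motor genes, with 95% counting intervals, split by presence of an ATG in the 5′ UTR. Genes without one lie mostly above those with one, Dctn6 stands at the top of the second group, and the square of Kif17, which had no 5′ UTR read in WT, is no bound.

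The deposited counts are per exon, and shorter 5′ UTRs of other transcripts of a gene divide some exons further, so reads could be placed along several 5′ UTRs. In Kif21a the stretch from 117 to 136 nucleotides before the CDS, 20 nucleotides long, held 276, 199 and 72 reads in Chx, Harr and WT. This was 76.2%, 79.0% and 47.7% of the 5′ UTR reads of the gene. The ATG of the frame printed above lies in it, 121 nucleotides before the CDS. Its read density was 57.3, 148 and 19.5 times that of the CDS, while the 116 nucleotides next to the CDS were at 2.97, 6.68 and 3.69 times, and the bases before the stretch held 3, 1 and 0 reads. In Harr against Chx the stretch stood at a log2 odds ratio of 1.37 (SE 0.16) and the bases next to the CDS at 1.17 (SE 0.27), within counting error, and against WT at 2.92 (SE 0.22) and 0.86 (SE 0.27).

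Kif1a has a single upstream frame of 21 nucleotides that begins 90 nucleotides before the CDS, and its 5′ UTR lies in 2 exons. The upstream exon of 60 nucleotides, which holds the frame, had 1708, 1028 and 411 reads, and the 59 nucleotides next to the CDS had 1358, 1239 and 315. In Harr against Chx the exon with the frame stood at a log2 odds ratio of 1.19 (SE 0.06) and the start exon at 1.79 (SE 0.06). Both were above 0, and the start exon was higher by more than the counting error. In Kif1b, a mitochondrial and vesicle carrier, 117 nucleotides with both upstream ATGs held 1266, 678 and 394 reads, or 79.1%, 70.0% and 61.6% of the 5′ UTR. That stretch stood at 1.03 (SE 0.07) against Chx and the 69 nucleotides next to the CDS at 2.46 (SE 0.17), while 78 nucleotides between them stood at 0.15 (SE 0.23). In Klc1 the 107 nucleotides with the upstream ATG held 632, 178 and 225 reads and stood at 0.99 (SE 0.13), and 57 nucleotides closer to the CDS held 264, 148 and 275 and stood at 1.99 (SE 0.15). In these 3 genes, unlike Kif21a and chosen after their values were seen, the stretch with an upstream ATG was enriched less in Harr against Chx than the one set beside it. Against WT this order held for Kif1a at 2.56 (SE 0.09) and 3.21 (SE 0.09), was within counting error in Kif1b at 1.98 (SE 0.09) and 2.22 (SE 0.19), and was turned around in Klc1 at 1.94 (SE 0.15) and 1.38 (SE 0.15). The stretch of Klc1 from 2 to 31 nucleotides before the CDS, with 17, 46 and 20 reads, stood above both, at 4.23 (SE 0.41) against Chx and 3.46 (SE 0.38) against WT.

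Kif3c differed from them in amount. Its 5′ UTR of 791 nucleotides held 2623, 2323 and 1564 reads, more than the 647 of its whole CDS in Harr. The 209 nucleotides next to the CDS held 234, 192 and 251 of these, and the 582 nucleotides before them, with 5 of the 6 upstream ATGs, held 2389, 2131 and 1313. The 2 stretches stood at 2.48 (SE 0.15) and 2.60 (SE 0.07) in Harr against Chx, a difference within their counting error, and at 1.84 (SE 0.15) and 2.92 (SE 0.08) against WT. Kif5a and Dync1i1 have no upstream ATG, and most of their reads in Harr and WT lay next to the CDS. Kif5a had 1319, 2126 and 769 reads in the 184 nucleotides next to the CDS and 15, 36 and 14 in the 268 before them. In Dync1i1 the last 9 nucleotides before the CDS, the part of the 5′ UTR in the exon of the start codon, held 185, 485 and 132 reads, or 49.3%, 66.3% and 74.6%. In Klc2, which has 1 upstream ATG farther out, 11 such nucleotides held 238, 279 and 96 reads.

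**Figure D3:**
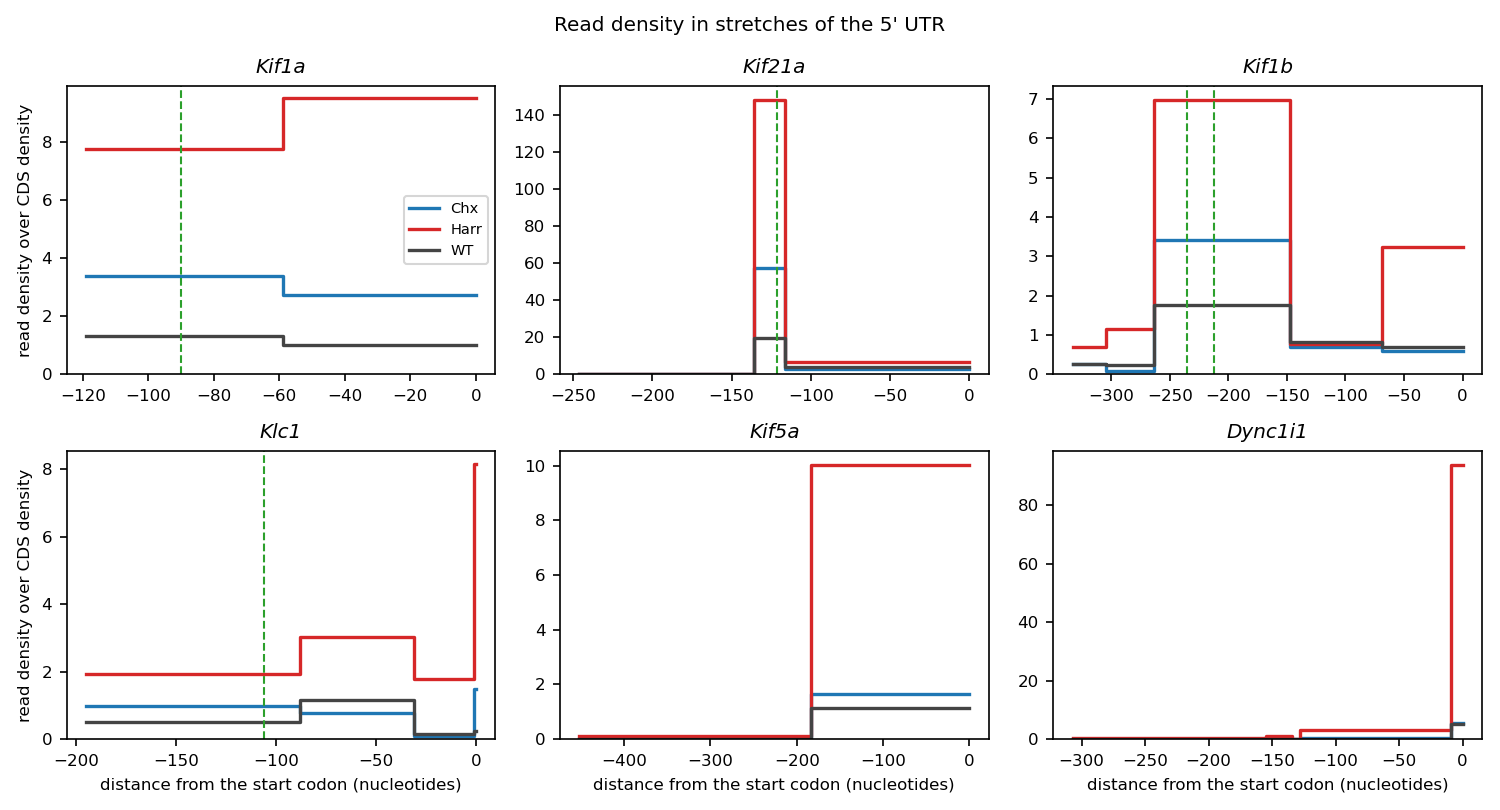
Read density in stretches of the 5′ UTR divided by that of the CDS of the same gene and library, for 6 genes, against distance from the start codon in nucleotides, with dashed lines at upstream ATGs. Kif21a peaks in the 20 nucleotides around its upstream ATG in all 3 libraries, Kif1b in the 117 nucleotides with its upstream ATGs, and Kif5a and Dync1i1 next to the CDS, on scales that differ between panels.

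CDS reads were compared as a share of the CDS reads of each library, for genes with at least 100 CDS reads over the 3, which 48 motor genes and 11459 genes in all reached. A pseudocount of 0.5 was added, and a gene was called past a 2-fold difference, a log2 ratio of 1 in size. In Harr against Chx, 2 motor genes were called higher, where 4.63% of all genes were, and 4 lower, where 14.1% were. Against WT 4 were higher (5.3% of all genes) and 2 lower (14.7%), and in Chx against WT none passed in either direction (0.201% and 0.122% of all genes). The median of the motor genes was 0.17 (-0.09 to 0.47) against Chx and 0.31 (-0.08 to 0.55) against WT, beside -0.05 and 0.00 for all genes. These directions hold relative to the cytosolic CDS total: relative to the 13 CDSs of the mitochondrial genome every ratio of Harr moved by -1.38 against Chx and -1.31 against WT, and the motor gene medians became -1.22 and -1.01.

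Ratios of motor genes followed CDS length. Over the 48 genes, Spearman's rho between length and log2 ratio was 0.63 (Harr against Chx), 0.76 (Harr against WT) and 0.40 (Chx against WT), as a description across genes that share 3 libraries. Motor genes are long, with a median CDS of 2583 nucleotides among those tested against 1386 for all genes tested. Of the 12 over 4000 nucleotides, 10 lay above 0 against Chx and 12 against WT, where 96.7% and 96.3% of all genes of that length did, and their medians of 0.49 and 0.77 stood beside 0.66 and 0.77 for all genes of that length. The 21 of 2000 to 4000 nucleotides had medians of 0.39 and 0.52, beside 0.36 and 0.44 for all such genes. Motor genes of these lengths lay near other genes of like length. Medians of shorter motor genes lay below those of like length. They were -0.22 and -0.17 for the 10 of 1200 to 2000 nucleotides, beside -0.07 and -0.01 for all such genes. For the 2 of 600 to 1200 they were -0.98 and -0.75, beside -0.54 and -0.52. For the 3 under 600 they were -1.25 and -1.53, beside -0.68 and -0.75.

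Dctn6 and Dctn5 were called lower in Harr in both comparisons. Dctn6 (CDS at chr8:34090744-34108441), with the counts given above, stood at 80.7, 11.6 and 84.8 RPKM in Chx, Harr and WT, a log2 ratio of -2.24 (SE 0.18) against Chx and -2.34 (SE 0.18) against WT. Dctn5 stood at 55.6, 15.9 and 65.8 RPKM, with ratios of -1.25 (SE 0.16) and -1.53 (SE 0.16). Both have a CDS under 600 nucleotides, a class with a median of -0.68 against Chx, and lay 1.55 and 0.57 log2 units below it. Of all genes of that class, 35.7% were called lower against Chx and 39.2% against WT. Dctn3, of the same class, was not called, at -0.48 (SE 0.06) and -0.47 (SE 0.06), and lay above the class median. Dctn2 was at -0.93 (SE 0.05) and -0.90 (SE 0.05), just inside the threshold, and Dctn4 at -0.17 (SE 0.08) and -0.18 (SE 0.08). Dctn1 with its long CDS stood at 0.59 (SE 0.03) and 0.58 (SE 0.03), so the subunits of this complex spread over more than 2 log2 units. About 19.8% of the CDS words of Dctn5 occur in another gene.

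Dynein subunits split in the same manner. Dync2h1 and Dync1h1 have the longest CDSs of the list, 12921 and 13935 nucleotides. Dync2h1 had 1092, 377 and 748 CDS reads, with 0.89 (SE 0.09) against Chx and a call of 1.16 (SE 0.09) against WT, and Dync1h1 stood at 0.34 (SE 0.02) and 0.85 (SE 0.02). Dync2li1 had 456, 42 and 355 reads, with a call of -1.004 (SE 0.23) against Chx and -0.92 (SE 0.23) against WT. Its call was lost with a pseudocount of 5, at -0.87, and with median-of-ratios scaling, at -0.95. Dync1li2 stood at -0.73 (SE 0.08) and -0.80 (SE 0.08), Dync1i1 at -0.28 (SE 0.05) and -0.12 (SE 0.05), Dync1li1 at -0.09 (SE 0.06) and -0.22 (SE 0.06), and Dync1i2 at 0.13 (SE 0.04) and 0.02 (SE 0.04). As shares of library CDS reads the heavy chains were above 0 and the light intermediate chains below 0 in both comparisons, whereas relative to the mitochondrial CDSs all of them were below 0.

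Kinesins were called in few cases. Kif21b, with 4557, 1380 and 3028 CDS reads, passed against WT at 1.01 (SE 0.05) and stood at 0.70 (SE 0.04) against Chx. Kif23, a kinesin of the central spindle, was highest in both comparisons, at 1.41 (SE 0.26) against Chx and 1.27 (SE 0.27) against WT, from 91, 45 and 83 reads. Kif20b, also of cell division, passed against Chx at 1.14 (SE 0.39) from 47, 19 and 46 reads, and Kif16b, an endosome carrier, against WT at 1.01 (SE 0.42) from 78, 17 and 38. The call of Kif16b was lost with its transcript of most CDS reads, at 0.997. Kif18b, which acts on spindle microtubules, was called lower against Chx at -1.34 (SE 0.51) from 115, 8 and 57 reads, a call lost with a pseudocount of 5, at -0.79. Among all motor genes called, the 95% counting interval lay wholly past the threshold in Dctn6 in both comparisons and in Dctn5 against WT. Relative to the mitochondrial CDSs the ratios of Kif23, Kif21b, Kif16b and Dync2h1 against WT and of Kif20b against Chx turned negative.

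Kinesin-1 heavy and light chains differed. Kif5a, Kif5c and Kif5b stood at 0.49 (SE 0.03), 0.39 (SE 0.03) and 0.13 (SE 0.07) in Harr against Chx, and Klc1, Klc2 and Klc4 at -0.40 (SE 0.04), 0.01 (SE 0.07) and -0.57 (SE 0.20). The summed density of Klc1 to Klc4 over that of Kif5a to Kif5c was 0.815 (0.799 to 0.832) in Chx, 0.492 (0.469 to 0.516) in Harr and 0.743 (0.726 to 0.761) in WT. The Kif3 genes of kinesin-2 also parted, as shares of library CDS reads: Kif3a and Kif3b stood at 0.47 (SE 0.04) and 0.60 (SE 0.06) against Chx, and Kif3c at -0.34 (SE 0.06), which is 0.71 log2 units below the median of its length class. Kif2a stood at 0.79 (SE 0.04), from 4510, 1453 and 3970 reads. Kif1bp, the kinesin-binding protein, stood at -0.96 (SE 0.12), from 1547, 148 and 980 reads, but at -0.38 with its transcript of most CDS reads. Among the kinesin-3 carriers, Kif1a stood at 0.50 (SE 0.02) against Chx and 0.90 (SE 0.02) against WT, and Kif1b at 0.49 (SE 0.02) and 0.95 (SE 0.03). Their ratio to each other was 2.64 (2.60 to 2.69), 2.66 (2.57 to 2.76) and 2.74 (2.68 to 2.80) in Chx, Harr and WT. The intervals of Chx and WT overlapped only from 2.680 to 2.689.

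**Figure D4:**
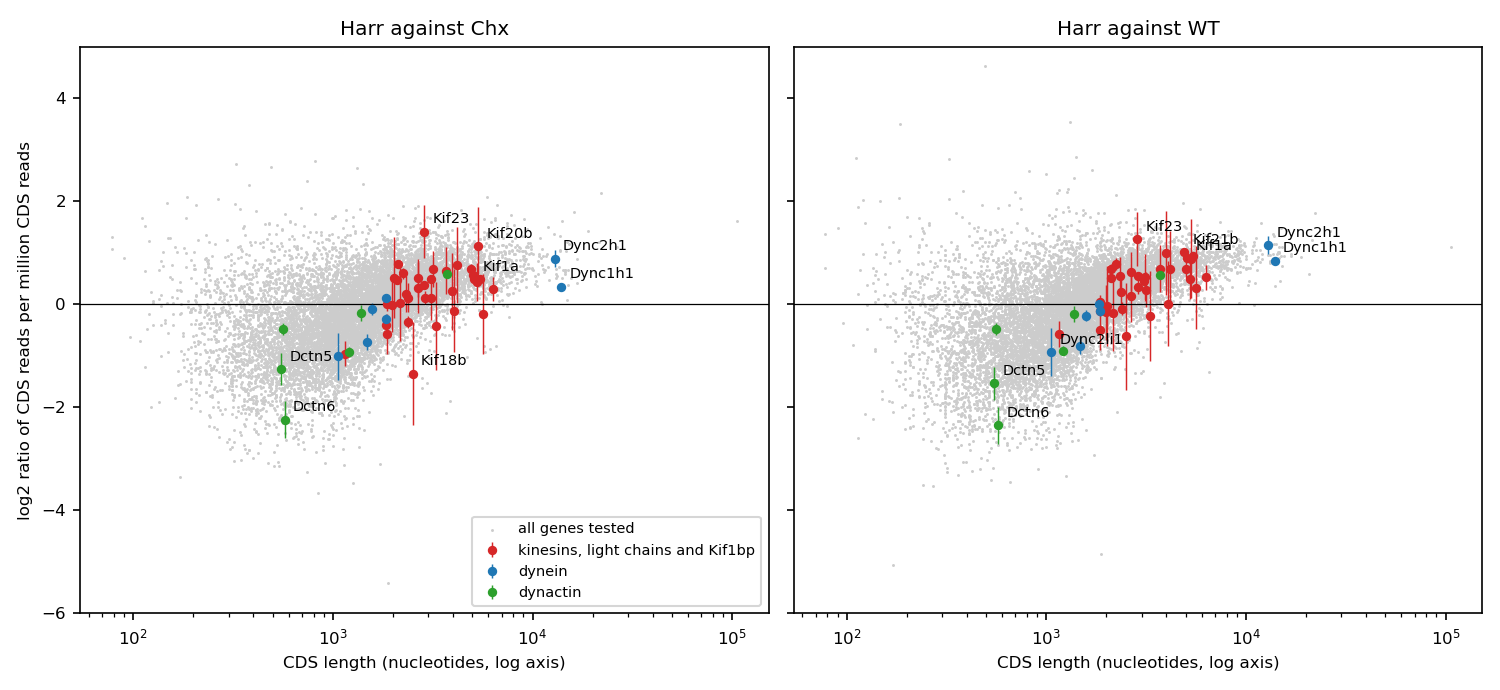
Log2 ratio of CDS reads as a share of library CDS reads in Harr against Chx (left) and Harr against WT (right), by CDS length (log axis), for 11459 genes in grey and 48 motor genes in colour with 95% counting intervals. Motor genes lie within the grey cloud and climb with length, from Dctn6 at -2.24 and -2.34 to Dync2h1 at 0.89 and 1.16, and relative to the mitochondrial CDSs all points would lie lower by one shift per panel.

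In Chx against WT the 48 ratios ran from -0.55 to 0.75, with a median of 0.08 beside 0.03 for all genes. The highest were Kif16b at 0.75 (SE 0.28), Kif18b at 0.73 (SE 0.23) and Kif26a at 0.52 (SE 0.25), and the lowest Kifc5b at -0.55 (SE 0.25), Kif11 at -0.41 (SE 0.12) and Dctn5 at -0.28 (SE 0.06). Among well-read genes Dync1h1 stood at 0.50 (SE 0.02), Kif1b at 0.46 (SE 0.02) and Kif1a at 0.41 (SE 0.01). All 48 were inside the 2-fold threshold, while the 95% counting intervals of 19 genes lay above 0 and those of 7 below, where 27.8% and 21.4% of all genes did.

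Reads of 6 long motor genes were then placed along the CDS. All CDSs of 4500 nucleotides or more with at least 200 reads in each library were taken: Dync1h1, Dync2h1, Kif1b, Kif1a, Kif21a and Kif21b. In each window the ratio of Harr to Chx reads was divided by the same ratio from nucleotide 2100 onward. Summed over the 6 genes it was 0.355 (0.332 to 0.379) in the first 300 nucleotides, 0.122 (0.105 to 0.142) from 300 to 600, 0.264 (0.243 to 0.287) from 600 to 1200 and 0.837 (0.802 to 0.873) from 1200 to 2100. Against WT the values were 0.274, 0.101, 0.256 and 0.852. Harr reads were thus sparsest between 300 and 600 nucleotides and their summed ratio was nearest the far level past 1200.

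From 1200 to 2100 nucleotides the genes differed, with 0.862 (0.815 to 0.912) in Kif1a, 0.676 (0.618 to 0.739) in Kif1b and 0.551 (0.472 to 0.642) in Kif21b against Chx. Dync2h1 stood at 1.10 (0.808 to 1.51) and Kif21a at 0.766 (0.567 to 1.04), with intervals that include 1. Dync1h1 stood at 0.773 (0.622 to 0.962), from 1 segment of 228 nucleotides, without the longer segment left out. The counts show the earlier window gene by gene. From 300 to 600 nucleotides Dync1h1 had 1264 Chx, 50 Harr and 1127 WT reads, against 16860, 4561 and 9035 in the far part. Kif1b had 826, 18 and 477 there against 9852, 3380 and 5816, and Kif1a 2040, 72 and 1365 against 26521, 8686 and 15893. The relative ratios to Chx were 0.146 (0.110 to 0.194), 0.0635 (0.0398 to 0.101) and 0.108 (0.0851 to 0.136). Kif21a had 3 Harr reads in that window and Dync2h1 none beside 31 of Chx and 41 of WT, so depth limits what can be said of them. Kif21b differed, with 0.264 (0.185 to 0.376) from 300 to 600 and its lowest value, 0.130 (0.0901 to 0.187), from 600 to 1200. The first 300 nucleotides were above the next window in Dync1h1, Kif1b and Kif1a beyond counting error, with Dync1h1 highest of the 6 at 0.584 (0.514 to 0.663). In Chx against WT the summed ratios were 0.774 in the first window, 0.824 in the next and 1.02 from 1200 to 2100. Genes differed here: Kif21a stood at 2.09 (1.65 to 2.66) and 2.02 (1.45 to 2.82) in the first and second window and Kif21b at 1.16 (1.02 to 1.33) and 1.14 (0.939 to 1.39), against 0.817 and 0.601 in Dync1h1.

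**Figure D5:**
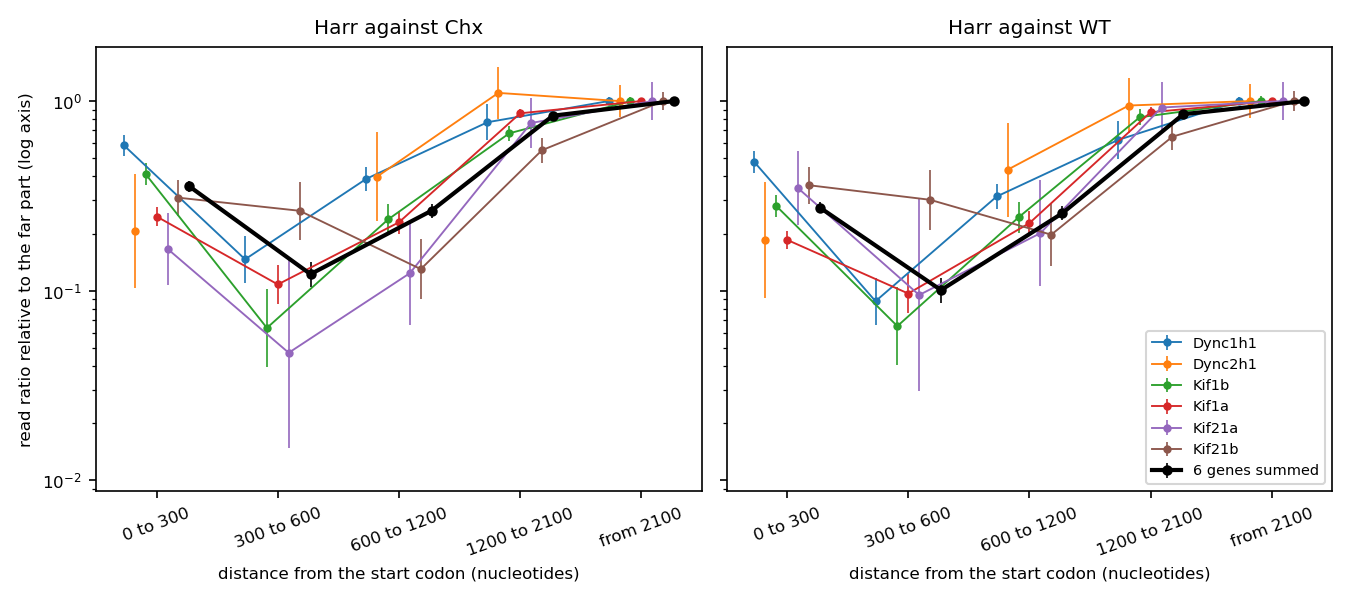
Ratio of Harr to Chx (left) and Harr to WT (right) reads in windows of the CDS, each divided by the ratio from nucleotide 2100 onward (log axis), for 6 long motor genes and their sum, with 95% counting intervals. Dync1h1, Kif1b, Kif1a and Kif21a are lowest from 300 to 600 nucleotides, where the sum is at 0.122 and 0.101 and Dync2h1, with no Harr read, has no point.

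Shorter genes allowed a coarser reading, of the first 600 nucleotides against the part from 900, in 17 motor genes. They were those of at least 1500 nucleotides with at least 200 reads in every library, except Kif3b and Kif3c, whose first coding exon is too long to place reads within. In all 17 the Harr to Chx ratio was lower near the start, with intervals below 1, as in 88.6% of 2034 genes of all kinds taken by the same limits, and 87.9% against WT. It ran from 0.106 (0.0897 to 0.126) in Kif3a to 0.671 (0.597 to 0.755) in Klc1. Kif3a had 3042 Chx, 156 Harr and 2468 WT reads in the near part and 3714, 1791 and 2929 in the far part. In Klc1 the near part held most reads in every library, 7147, 1029 and 4893 against 2308, 495 and 1681. The median was 0.316 against Chx and 0.277 against WT, beside 0.353 and 0.344 for all such genes. Chx against WT had a median of 0.972, with intervals below 1 in 5 genes and above 1 in 4, where 28% and 20.9% of all such genes lay.

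Kif1b also showed which of its forms was read. The gene makes a short protein (transcript Kif1b-201) and a long one (Kif1b-203) that share the motor domain and differ in the tail. Segments shared by both had 104, 56.8 and 75.4 RPKM in Chx, Harr and WT, over 1843 nucleotides in the first part of the CDS. The 1476 nucleotides found in the short form alone had 108, 41 and 96 reads, or 2.05, 2.85 and 2.15 RPKM. The 3396 nucleotides of the long form alone had 81.4, 102 and 56.9 RPKM. Read density was thus far higher in the segments of the long form than in that of the short form in every library. Shared segments were higher than the long form's own in Chx and WT and lower in Harr.

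The 3′ UTR held few motor gene reads, 0.333% (0.310 to 0.357) in Chx, 2.08% (1.97 to 2.19) in Harr and 0.505% (0.472 to 0.541) in WT, against 1.71%, 4.10% and 2.18% over all genes. Kif1a gave 561 of the Chx reads, 73.1% of the list, and 18.8% and 36.8% in Harr and WT. Without it the Chx share was 0.112%. Against Chx, 24 of 25 motor genes had a 3′ UTR to CDS log2 odds ratio above 1 in Harr, with 88.9% of all genes tested, and the medians were 5.05 and 3.76. Against WT it was again 24 of 25, with 84% of all genes, and medians of 2.86 and 2.59. In Chx against WT the median was -1.62 for 23 motor genes, 16 of which were below -1, where 47.8% of all genes were. Kif1a, with 561, 252 and 299 reads, was the gene not above 1 in both Harr comparisons, at 0.77 and 0.99. This rested on its longest transcript: with the Kif1a transcript of most CDS reads the values were 4.89 and 2.11, and that of Chx against WT was -2.77 in place of 0.22. Dctn2 had 8, 128 and 11 reads in the 3′ UTR.

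Genes that work with the motors but lie outside the name rule gave a frame for these values. Of the dynein light chains, which join dynein to other partners, 8 were tested and had a median log2 ratio of -0.89 in Harr against Chx, with 3 called lower and none higher. Their CDSs are short, with a median of 342 nucleotides, and 14.1% of all genes and 35.7% of those under 600 nucleotides were called lower. The 6 further dynactin subunits, with the actin-related Actr1a and the capping proteins, had a median of -0.79 with 1 called lower, near the 14.1% of all genes. Of 22 adaptors and regulators tested, 16 lay above 0, where 47.6% of all genes did and, among genes of 2000 to 4000 nucleotides, 2162 of 2649. Their median CDS was 2127 nucleotides and their median ratio 0.35, and 1, Arl8b, was called lower. Pafah1b1, the Lis1 protein that holds dynein open, stood at -0.72 with 8691, 982 and 7538 reads, and Kifap3, the third kinesin-2 subunit, at 0.05 with 14197, 2737 and 11830.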

How the data were processed

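The files hold, for each library and for 5′ UTR, CDS and 3′ UTR, a row per exon segment of a transcript with its read count, its count per nucleotide and its RPKM. Per the file headers, the authors counted reads of 25 to 100 nucleotides at their 5′ end with Plastid, and the deposited counts are raw whole numbers. The deposited signal per nucleotide is that count over the segment length, and the deposited RPKM also divides by the total in the file header. The genome build was mm10, per the submitters' processing notes. The study's methods describe adapter trimming and alignment before counting.

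Counts were summed per transcript and region, and transcript IDs were matched to GENCODE M21 symbols (99.07% of 142446). RPKM was recomputed from the sums. Intervals (exact Poisson, Wilson, or from the SE of a log ratio of counts) are at 95%, and a count of 0 allows up to 3 counts. Reads may include PCR copies, so intervals and limits cover counting error only. Kif13b had no transcript with all 3 regions and was left out. Named genes followed a written rule: the 10 highest in WT, kinesin-1, all Dync and Dctn members, and the 3 highest and lowest of each comparison. Genes whose 5′ UTR stretches are given, with Kif3c, Kif2a, Kif21a and Kif1b, and the split by upstream ATG were chosen after values were seen. The members and lists were chosen with earlier results of these data known. Description labels that name other fractions were not used for grouping. Ratio functions were tested on simulated data. Python 3.11.15, pandas 2.3.3, numpy 2.4.6 and scipy 1.17.1 were used.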

Additional observations from a re-analysis of the deposited data

Results flagged for a closer look

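Kif13b, a kinesin-3 that matched the name rule, was outside every comparison because no single transcript of it had rows for both UTRs and the coding region. Its longest CDS, of 5544 nucleotides, held 296 (Chx), 92 (Harr) and 191 (WT) reads, at 1.49, 1.70 and 1.14 RPKM, above the 3 counts that a count of 0 allows. It was picked out because a signal stands in rows that the report did not use.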

How the results depend on the processing

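No paired analysis was possible because each treatment had 1 library. Of 165 summary values computed under the alternatives, 130 stayed within the main interval or within 1.5 times the main count. Relative to the 13 mitochondrial CDSs the median CDS log2 ratio was -1.22 in Harr against Chx and -1.01 against WT, with 0 and 0 motor genes above 1 and 29 and 24 below -1, and the ratios of Dync2h1 (-0.16), Kif16b (-0.31), Kif21b (-0.30) and Kif23 (-0.046) against WT and of Kif20b (-0.25) against Chx changed sign. With no minimum of reads, 4 (Harr against Chx), 7 (Harr against WT) and 2 (Chx against WT) were above 1, and 8, 7 and 1 below -1. A pseudocount of 5 left 2 genes below -1 in Harr against Chx, without Dync2li1 and Kif18b, and gave a 3′ UTR median of 4.21. A minimum of 50 reads left 7 genes above 1 for the 5′ UTR in Chx against WT. Without Kif1a the 5′ UTR shares were 7.66%, 25.8% and 5.29% in Chx, Harr and WT, and the 3′ UTR shares 0.112% in Chx and 0.385% in WT. With the transcript of most CDS reads, which differed from the longest in 10 genes, they were 7.0%, 23.3% and 4.46%, and 0.111% and 0.396%, and 19 values of single genes moved, all of Kif1a, Kif1bp, Kif2a, Kifc3, Klc1 and Dync1i2, with the 5′ UTR value of Klc1 at 2.38 in Harr against Chx and 2.17 in Chx against WT. With genes whose UTRs overlap no CDS, the 5′ UTR shares were 7.19%, 23.2% and 4.55%. With the far part from 3000 nucleotides, Harr over Chx was 0.381 in the first 300 nucleotides and 0.899 from 1200 to 2100. Without Dync1h1 it was 0.300 (0 to 300), 0.225 (600 to 1200) and 0.792 (1200 to 2100), and Harr over WT was 0.233 and 0.234 in the first and the third window. The cause of these moves was not tested. Leaving out Kif1bp, Kifc1, Kifc5b and Kif21b, chosen after seeing the data, moved no summary value past these limits. Members under about 100 CDS reads are limited by the depth of Harr, the smallest library.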
